A study of Mus musculus with 10 samples.

Results

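Fatty acid oxidation and fatty acid synthesis were followed through 42 genes in mouse alveolar macrophages, which reside in the airspaces of the lung. Of these, 18 act in mitochondrial oxidation, 10 in peroxisomal oxidation, 4 are acyl-CoA synthetases that activate fatty acids, and 10 act in synthesis, desaturation and elongation. The genes were chosen by symbol as members of these pathways, with no measured value in the rule. All 42 were found among the 26173 genes of the expression table, and all 42 were among the 11336 genes compared, those with at least 1 FPKM in at least 2 of the 10 samples. FPKM is a fragment count divided by transcript length and by sequencing depth; the table names no unit, and its values were taken as FPKM.

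The macrophages came from C57BL/6 mice labelled female and 16 weeks old, with 2 samples in each of 5 groups, and the study asked how they change where Bach2, a transcriptional repressor, is lost. The line Bach2-floxed CD4cre gave 3 groups: knockout macrophages with aberrant surface markers (aberrant-marker), knockout macrophages whose surface markers matched controls (normal-marker), and macrophages of the control mice of that line (conditional control). The other groups were a Bach2 germline knockout and the wild type. The Cd4 promoter drives Cre in T cells, so in these mice the macrophages themselves may still carry Bach2. The floxed and Cre alleles that the conditional control mice carried, and any pooling of mice, were not given in the sources used here. The aberrant-marker and normal-marker groups were separated by surface phenotype, and genes that vary with it may differ through that separation.

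Samples that shared a group differed by little more than sampling noise, so the 2 were averaged and counted as 1 library. Over the 42 genes, the median absolute log2 difference at 20 FPKM or more was 0.0284 to 0.0525 within groups and 0.320 to 1.34 across them. That leaves 1 library per group, and differences carry neither a check by replicates nor a p-value. Over all genes at 20 FPKM or more the median absolute log2 difference was 0.0454 to 0.0526 within groups and 0.482 to 0.973 across them. A lack of overlap between samples of different groups therefore adds little to a difference. Its share over all genes was not counted. A gene was called higher or lower where log2(FPKM + 1) differed by at least 2, which is 4-fold on that scale, both between the means and in each pairing of samples, and the higher library reached 20 FPKM. Differences of weakly expressed genes are understated on this scale. Samples held an estimated 7.499 M to 9.44 M fragments, at which 1 read on a 2 kb transcript gives 0.0530 to 0.0667 FPKM. Bach2 was at 0.0571 FPKM or less in each library, too low to check the genotypes, and the Y-linked gene Eif2s3y was at 39.9 FPKM in the germline knockout and 60.8 FPKM in the wild type although all mice were labelled female.

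Mitochondrial oxidation shortens fatty acids that enter the matrix as carnitine esters, in repeated rounds of dehydrogenation, hydration, dehydrogenation and thiolysis. Peroxisomes start the breakdown of very long and branched chains with their own enzymes. The opposite pathway builds fatty acids in the cytosol from citrate-derived acetyl-CoA, and desaturases and elongases then modify them. Alveolar macrophages take up and break down surfactant lipid, and they are known for dependence on the lipid-sensing receptor Pparg.

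Summed over a class, oxidation genes stood lower in the aberrant-marker and germline knockout libraries than in their controls, and the synthetases stood higher. The mitochondrial genes summed to 749 FPKM in the aberrant-marker and 1186 FPKM in the normal-marker library, against 1219 FPKM in the conditional control. They summed to 891 FPKM in the germline knockout, against 1374 FPKM in the wild type. The peroxisomal genes summed to 206 and 555 FPKM in the aberrant-marker and normal-marker libraries, against 644 FPKM in the conditional control, and to 304 FPKM in the germline knockout, against 715 FPKM in the wild type. The synthetases summed to 83.7 and 121 FPKM in the aberrant-marker and normal-marker libraries, against 69.0 FPKM in the conditional control, and to 103 FPKM in the germline knockout, against 53.6 FPKM in the wild type. The synthesis genes summed to 229, 307 and 319 FPKM in the aberrant-marker, normal-marker and conditional control libraries, and to 198 FPKM in the germline knockout, against 241 FPKM in the wild type. In bulk samples fewer cells of a type and less RNA per cell cannot be told apart.

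**Figure D1:**
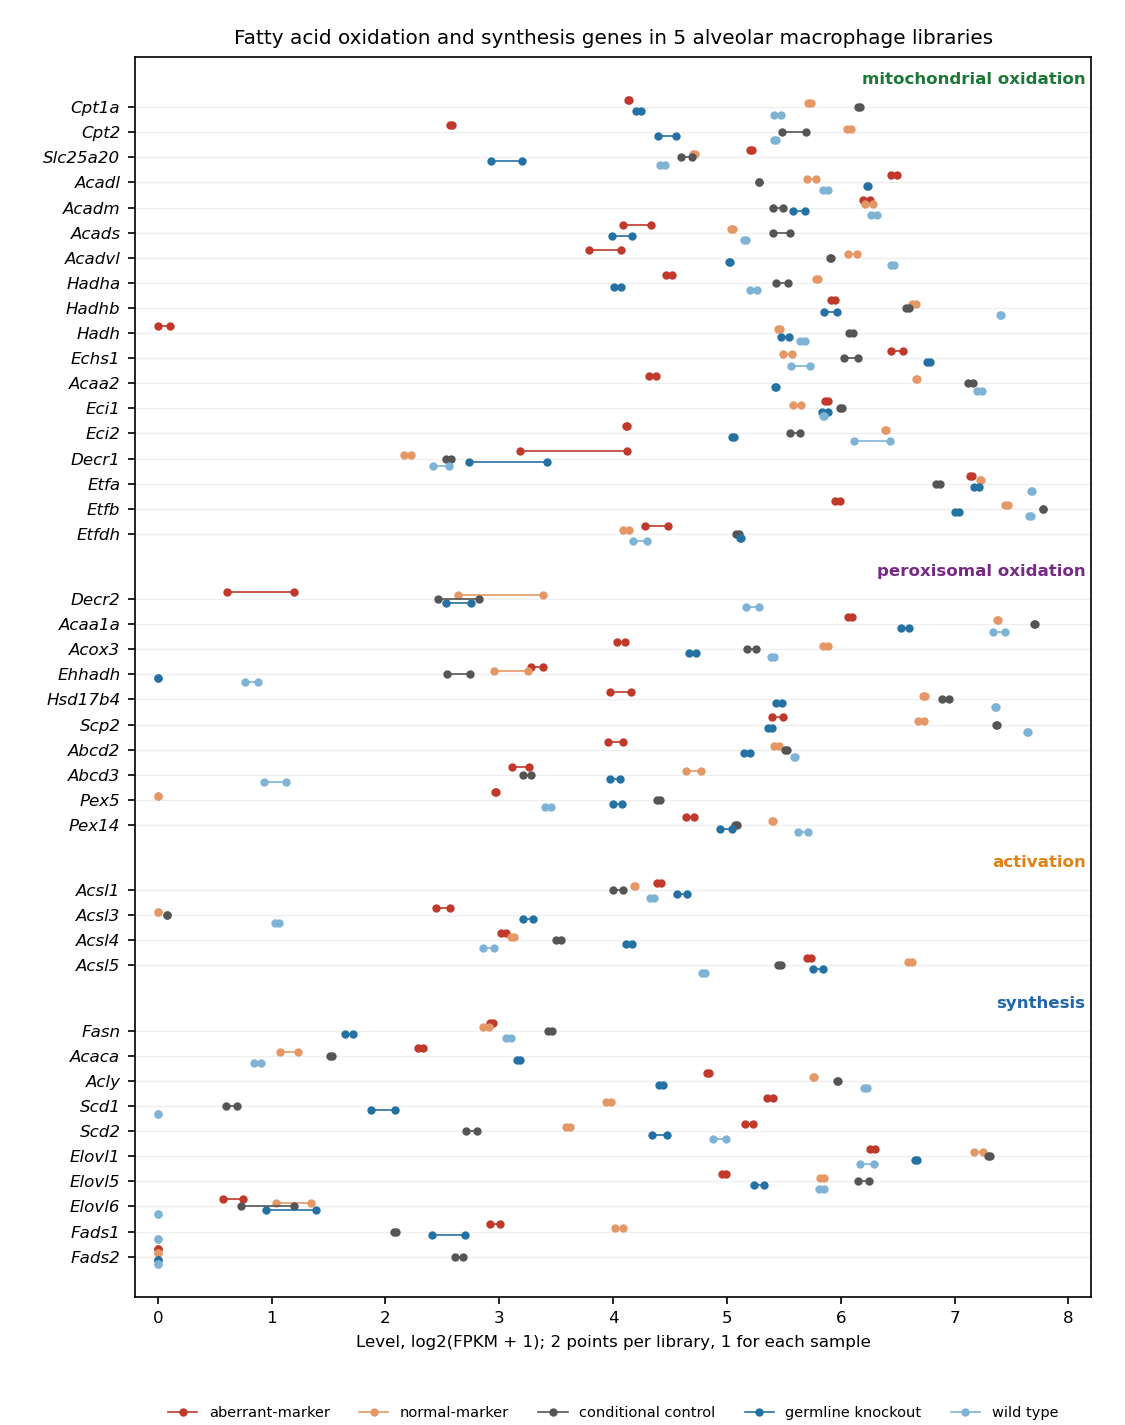
Levels of the 42 genes on a log2(FPKM + 1) axis, with 1 gene per row grouped by class and 2 points joined by a line, 1 for each sample, in each of the 5 libraries. The points of a library lie close together, and Hadh is near 0 in the aberrant-marker library alone.

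In aberrant-marker macrophages 5 oxidation genes were lower than in the conditional control by the 4-fold rule: Cpt1a, Cpt2, Hadh, Acaa2 and Hsd17b4. The desaturases Scd1 and Scd2 were higher. The 5 lower genes are of 42, beside 3.76% of all genes compared, and the 2 higher genes stand beside 4.09%. Among genes that reached 20 FPKM in the higher library the backgrounds were 9.1% lower and 9.91% higher, and 31 of the 42 genes reached that level. The median log2 difference was -0.68 over the 42 genes and 0.00 over all genes. With means at least 2-fold apart on the same scale as the measure, 19 of 42 genes (45.2%) were lower, beside 25.1% of all genes, and 5 (11.9%) were higher, beside 25.2%. The peroxisomal genes had a median of -1.47, the mitochondrial genes -0.85, the synthesis genes -0.41 and the synthetases 0.31.

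Entry into mitochondria runs through 3 genes: Cpt1a, the outer-membrane carnitine palmitoyltransferase that sets the rate, Slc25a20, the carnitine-acylcarnitine carrier, and Cpt2, which returns the chain to CoA. Cpt1a had 16.6 and 16.5 FPKM in the aberrant-marker samples and 52.3 and 51.3 FPKM in the normal-marker samples, against 71.1 and 70.0 FPKM in the conditional controls, and its aberrant-marker difference of -2.03 (log2) lay just past the threshold. Cpt2 had 5.01 and 4.92 FPKM in the aberrant-marker and 67.0 and 65.4 FPKM in the normal-marker samples, against 50.7 and 43.7 FPKM in the conditional controls, a log2 difference of -3.01 for the aberrant-marker library. For both genes the aberrant-marker library was the lowest of the line. Slc25a20, between them in the pathway, averaged 36.1 FPKM in the aberrant-marker library and 24.0 FPKM in the conditional control, a difference of 0.57 (log2) in the other direction that was short of the call.

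The promoters shown are those of Cpt1a, Cpt2 and Hadh, the genes called between aberrant-marker and conditional control macrophages that had a promoter entry. Eci2, Pex5, Decr2 and Scp2, called in other comparisons, had entries that are not shown. The Hadhb window is shown because it lies between a pair of genes that encode 1 enzyme. Each is the 250 bases before the RefSeq start in GRCm38.p6, written 5′ to 3′ on the gene's strand. Capitals mark matches, on either strand, to the letters AGGTCA (a nuclear receptor half-site), TCACNCCAC (a sterol regulatory element), CACGTG (an E-box), CCAAT or CCGGAAG (an Ets site), none of which share letters here.
Cpt1a, chr19:3323051-3323300, plus strand: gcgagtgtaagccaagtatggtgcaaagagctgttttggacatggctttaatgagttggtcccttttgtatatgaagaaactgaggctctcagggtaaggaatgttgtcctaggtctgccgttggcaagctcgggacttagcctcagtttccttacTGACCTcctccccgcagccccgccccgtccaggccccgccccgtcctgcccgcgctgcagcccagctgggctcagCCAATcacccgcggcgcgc
Cpt2, chr4:107923590-107923839, minus strand: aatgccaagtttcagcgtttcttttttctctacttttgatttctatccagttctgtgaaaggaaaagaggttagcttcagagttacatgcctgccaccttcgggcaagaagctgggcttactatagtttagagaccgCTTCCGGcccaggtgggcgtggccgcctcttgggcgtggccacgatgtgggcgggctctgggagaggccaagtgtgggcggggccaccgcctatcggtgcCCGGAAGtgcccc
Hadh, chr3:131272102-131272351, minus strand: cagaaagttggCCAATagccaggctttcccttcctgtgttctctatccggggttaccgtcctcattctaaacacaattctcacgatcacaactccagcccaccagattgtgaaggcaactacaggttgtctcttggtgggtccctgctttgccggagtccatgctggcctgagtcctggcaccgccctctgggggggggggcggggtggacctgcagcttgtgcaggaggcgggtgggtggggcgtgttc
Hadhb, chr5:30155003-30155252, plus strand: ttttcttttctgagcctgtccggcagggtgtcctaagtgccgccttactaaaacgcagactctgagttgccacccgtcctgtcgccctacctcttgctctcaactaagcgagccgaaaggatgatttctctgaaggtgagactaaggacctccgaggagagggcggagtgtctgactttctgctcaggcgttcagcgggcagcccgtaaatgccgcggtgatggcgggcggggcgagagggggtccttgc
The Cpt1a window held AGGTCA on the opposite strand, read as TGACCT, 94 to 89 bases before the start, and CCAAT at 19 to 15 bases. The Cpt2 window held CCGGAAG at 113 to 107 bases on the opposite strand and at 13 to 7 bases on its own strand, and the Hadh window held CCAAT at 239 to 235 bases. The Hadhb window held none of these letters. It lies between the starts of Hadhb and Hadha, which are 273 bases apart and point away from each other. Of the 42 genes, 35 had a promoter entry; not in that table were Abcd2, Acaa2, Decr1, Fads1, Hsd17b4, Scd1 and Scd2. AGGTCA was in 8 of 35 windows (22.9%), beside 15.8% of 27025 genes. CCAAT was in 15 (42.9%), beside 37.5%, CCGGAAG in 2 (5.71%), beside 7.83%, TCACNCCAC in 2 (5.71%), those of Acsl1 and Ehhadh, beside 1.22%, and CACGTG in 1 (2.86%), beside 6.86%. These matches are descriptions of letters in a window.

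The chain itself begins with acyl-CoA dehydrogenases of different chain length. Acadvl, for very long chains, had 12.8 and 15.8 FPKM in the aberrant-marker and 65.7 and 69.4 FPKM in the normal-marker samples, against 59.3 and 58.9 FPKM in the conditional controls, and at -1.98 (log2) it fell just short of the call. Acadm, for medium chains, had 72.1 and 75.5 FPKM in the aberrant-marker and 73.4 and 76.7 FPKM in the normal-marker samples, against 41.3 and 44.0 FPKM in the conditional controls. Acadl, for long chains, averaged 87.4 FPKM in the aberrant-marker and 37.9 FPKM in the conditional control library, and Acads, for short chains, averaged 17.6 FPKM in the aberrant-marker and 43.6 FPKM in the conditional control library. The dehydrogenases thus stood on both sides of the control, with log2 differences of 1.18 for Acadl, 0.78 for Acadm, -1.26 for Acads and -1.98 for Acadvl. Acadm averaged 77.3 FPKM in the wild type and 73.8 FPKM in the aberrant-marker library, so its difference rested on the conditional control.

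Hadha and Hadhb encode the subunits of the trifunctional protein that handles long chains. Hadha had 21.0 and 21.9 FPKM in the aberrant-marker and 54.6 and 53.9 FPKM in the normal-marker samples, against 45.3 and 42.2 FPKM in the conditional controls, and Hadhb averaged 60.01 FPKM in the aberrant-marker and 95.1 FPKM in the conditional control library. Their log2 differences of -0.995 for Hadha and -0.66 for Hadhb were both short of the call. Hadhb shares 58.7% of its 50-base stretches with other annotations, 57.9% with Gm13910, so its level is an estimate. Hadh, the dehydrogenase of short and medium hydroxyacyl chains, differed most. It was listed at 0 in 1 aberrant-marker sample and at 0.0784 FPKM, about the worth of 1 read, in the other. In the normal-marker samples it had 42.6 and 43.2 FPKM, against 66.5 and 67.8 FPKM in the conditional controls. No fold is given, and the log2 difference of -6.04 on this scale depends on the added 1 FPKM. A level near 0 against a high level was uncommon in this direction: of 2192 genes with at least 40 FPKM in the conditional control, 13 (0.593%) were under 0.1 FPKM in the aberrant-marker library and 0 in the wild type. In the other direction, of 2234 genes with at least 40 FPKM in the aberrant-marker library, 58 (2.6%) were under 0.1 FPKM in the conditional control. Acaa2, the thiolase that ends a round, had 18.8 and 19.8 FPKM in the aberrant-marker and 101 and 100.4 FPKM in the normal-marker samples, against 138 and 142 FPKM in the conditional controls, a log2 difference of -2.80. Echs1, the hydratase, averaged 89.2 FPKM in the aberrant-marker and 67.1 FPKM in the conditional control library, a difference of 0.41.

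The auxiliary enzymes for unsaturated chains did not share a direction. Eci2, an enoyl-CoA isomerase, had 16.4 and 16.3 FPKM in the aberrant-marker and 82.996 and 83.1 FPKM in the normal-marker samples, against 48.9 and 45.9 FPKM in the conditional controls. Its relative Eci1, counted like Eci2 among the mitochondrial genes here, averaged 57.6 FPKM in the aberrant-marker and 63.0 FPKM in the conditional control library. Eci1 varied least of the 42 genes, with a ratio of 1.31 between its highest and lowest library. Decr1, a dienoyl-CoA reductase, had 16.4 and 8.08 FPKM in the aberrant-marker samples, which stood far apart, against 4.77 and 4.95 FPKM in the conditional controls. Electrons leave the dehydrogenases through the flavoprotein encoded by Etfa and Etfb. Etfb, the mitochondrial gene with the highest mean level, had 62.5 and 60.9 FPKM in the aberrant-marker and 173 and 176 FPKM in the normal-marker samples, against 218 and 218 FPKM in the conditional controls. Etfa, its partner subunit, averaged 140.1 FPKM in the aberrant-marker and 114 FPKM in the conditional control library. The log2 differences were -1.80 for Etfb and 0.29 for Etfa, and Etfdh, which passes the electrons on to ubiquinone, stood at -0.71. Of the 50-base stretches of Etfb, 67.3% also occur in the overlapping annotation Gm45233, so its level carries that uncertainty.

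**Figure D2:**
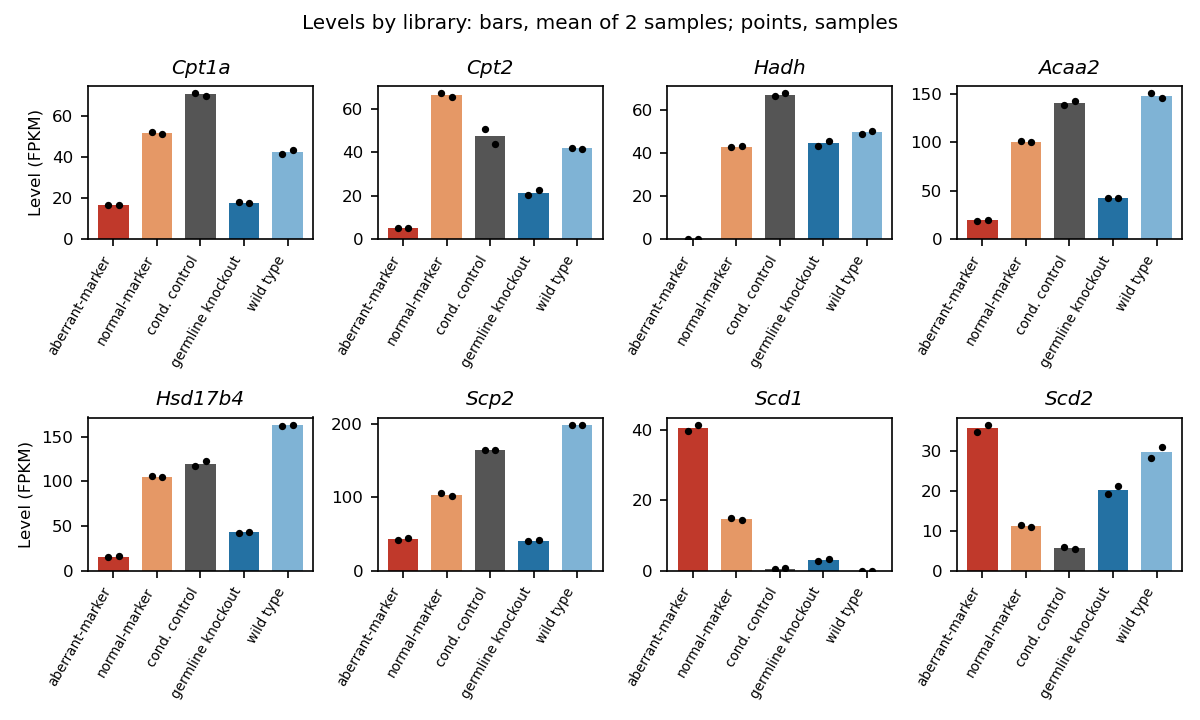
FPKM of selected oxidation and synthesis genes in each library, with bars for the mean of 2 samples and points for the samples. The paired samples nearly coincide, Cpt2 averages 4.97 FPKM in the aberrant-marker library and Scd1 averages 40.6 FPKM there.

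Peroxisomal genes were lower in 9 of 10 cases in the aberrant-marker library (8 with columns scaled by their median ratio), and 7 of the 10 had means at least 2-fold lower. Of all 11336 genes compared, 5499 were lower than in the conditional control, and 25.1% had means at least 2-fold lower. Hsd17b4, the bifunctional enzyme of branched and very long chains, had 14.7 and 16.8 FPKM in the aberrant-marker and 106 and 105 FPKM in the normal-marker samples, against 117 and 122 FPKM in the conditional controls, a log2 difference of -2.85. Scp2, whose longer product is a peroxisomal thiolase, had 41.1 and 44.0 FPKM in the aberrant-marker and 105 and 101 FPKM in the normal-marker samples, against 164 and 164 FPKM in the conditional controls, and at -1.92 it was short of the call. Acaa1a, the straight-chain thiolase and the peroxisomal gene with the highest mean, had 65.8 and 67.7 FPKM in the aberrant-marker and 166 and 164 FPKM in the normal-marker samples, against 206 and 208 FPKM in the conditional controls. In these 3 genes the normal-marker level lay between the others. Acaa1a shares 34.0% of its 50-base stretches with Acaa1b and Scp2 shares 41.4% with the pseudogene Scp2-ps2, so their levels are estimates of a divided signal. Acox3, an acyl-CoA oxidase, averaged 15.8 FPKM in the aberrant-marker and 36.3 FPKM in the conditional control library. Decr2, the peroxisomal dienoyl-CoA reductase, was weak in both, at 1.29 and 0.526 FPKM in the aberrant-marker and 4.51 and 6.07 FPKM in the conditional control samples. Ehhadh, the other bifunctional enzyme, stood apart from its class at 9.07 FPKM in the aberrant-marker and 5.26 FPKM in the conditional control library.

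The import genes differed less. Abcd2, a transporter of very long chains, averaged 15.2 FPKM in the aberrant-marker and 44.9 FPKM in the conditional control library, and the related transporter Abcd3 averaged 8.11 FPKM in the aberrant-marker and 8.45 FPKM in the conditional control library. Pex5, the import receptor for peroxisomal enzymes, had 6.85 and 6.80 FPKM in the aberrant-marker samples, against 20.3 and 19.9 FPKM in the conditional controls. Its docking partner Pex14 averaged 24.6 FPKM in the aberrant-marker and 32.8 FPKM in the conditional control library. Of these genes, 0 were called in that comparison.

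The acyl-CoA synthetases, which couple free fatty acids to CoA, followed neither oxidation class. Acsl5, the most abundant of them, had 51.2 and 52.2 FPKM in the aberrant-marker and 95.2 and 97.8 FPKM in the normal-marker samples, against 43.4 and 42.7 FPKM in the conditional controls. Acsl1 averaged 20.2 FPKM in the aberrant-marker and 15.5 FPKM in the conditional control library, and after Eci1 it varied least of the 42 genes, with a ratio of 1.51 between its highest and lowest library. Acsl3 averaged 4.68 FPKM in the aberrant-marker library, against 0.0587 FPKM, about 1 read, in the conditional control. Acsl4, which prefers arachidonate, had a similar total of 7.19 FPKM in the aberrant-marker and 10.5 FPKM in the conditional control library, yet the transcripts that made it up differed.

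The table divides Acsl4 among 3 RefSeq transcripts. NM_207625.2 had 5.48 and 7.08 FPKM in the aberrant-marker samples and 0.379 and 0.363 FPKM in the normal-marker samples, against less than 0.01 and 0.644 FPKM in the conditional controls. NM_019477.3 had 0.779 and 0.116 FPKM in the aberrant-marker samples and 4.14 and 6.09 FPKM in the normal-marker samples, against 6.58 and 6.93 FPKM in the conditional controls. Within the line the aberrant-marker library was thus high for NM_207625.2 and low for NM_019477.3. In the germline knockout NM_207625.2 averaged 4.76 FPKM, against 0.184 FPKM in the wild type, and NM_019477.3 averaged 6.43 FPKM in the germline knockout, against 4.08 FPKM in the wild type. These are the authors' model-based divisions of reads shared between transcripts, and the samples of a group differed more for single transcripts than for the gene.

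**Figure D3:**
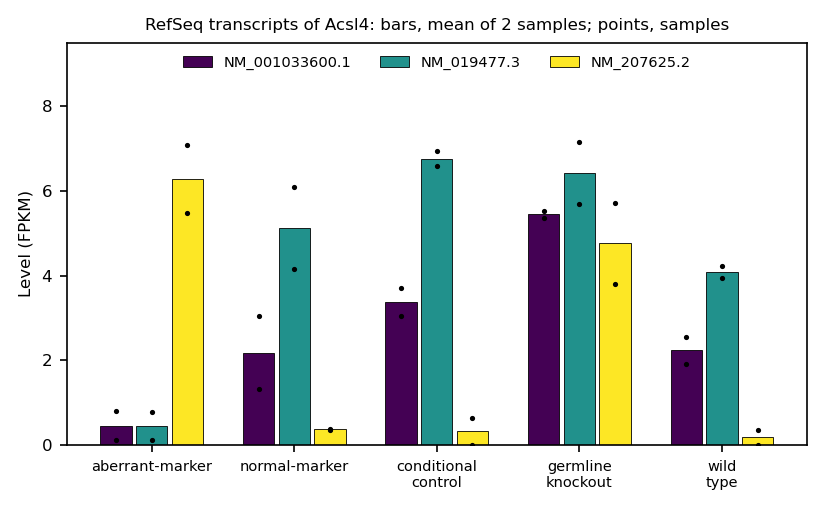
FPKM of the 3 RefSeq transcripts of Acsl4 in each library, with bars for the mean of 2 samples and points for the samples. NM_207625.2 averages 6.28 FPKM in the aberrant-marker and 4.76 FPKM in the germline knockout library, and 0.371 FPKM or less in the other 3.

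The desaturase Scd1, which makes oleate from stearate, had 39.8 and 41.4 FPKM in the aberrant-marker and 14.8 and 14.4 FPKM in the normal-marker samples, against 0.519 and 0.623 FPKM in the conditional controls, a log2 difference of 4.73 for the aberrant-marker library. Its neighbour and relative Scd2 had 34.7 and 36.5 FPKM in the aberrant-marker and 11.3 and 11.0 FPKM in the normal-marker samples, against 5.99 and 5.53 FPKM in the conditional controls, a difference of 2.44. Both stood highest in the aberrant-marker library and lowest of that line in the control. The wild type, however, had 28.3 and 30.8 FPKM of Scd2, so its call rested on the conditional control, while Scd1 was under 0.01 FPKM in both wild-type samples.

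The first steps of synthesis were not called. Fasn, the fatty acid synthase, had 6.68 and 6.57 FPKM in the aberrant-marker and 6.49 and 6.25 FPKM in the normal-marker samples, against 9.74 and 10.0 FPKM in the conditional controls. Acaca, the acetyl-CoA carboxylase that makes malonyl-CoA, had 4.03 and 3.89 FPKM in the aberrant-marker and 1.11 and 1.34 FPKM in the normal-marker samples, against 1.90 and 1.86 FPKM in the conditional controls. Acly, which splits citrate to acetyl-CoA, had 27.3 and 27.7 FPKM in the aberrant-marker and 53.2 and 53.0 FPKM in the normal-marker samples, against 61.6 and 61.9 FPKM in the conditional controls. Their log2 differences were -0.51 for Fasn, 0.78 for Acaca and -1.14 for Acly, each short of the call. Acaca shares 55.4% of its 50-base stretches with the annotation Gm5182, and its level is an estimate to that extent.

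Elongases and the remaining desaturases had no call. Elovl1, an elongase of saturated very long chains and the synthesis gene with the highest mean, had 77.8 and 75.6 FPKM in the aberrant-marker and 151 and 143 FPKM in the normal-marker samples, against 158 and 156 FPKM in the conditional controls. The wild type, at 70.9 and 77.1 FPKM, was level with the aberrant-marker library, and the log2 difference of -1.02 against the conditional control became 0.05 against the wild type. Elovl5, for polyunsaturated chains, averaged 30.5 FPKM in the aberrant-marker and 72.5 FPKM in the conditional control library. Elovl6, for palmitate, was at 1.30 FPKM or less in each of the 5 libraries. Fads1, a desaturase of polyunsaturated chains, averaged 6.79 FPKM in the aberrant-marker and 3.24 FPKM in the conditional control library, while the adjacent gene Fads2 was listed at 0 outside the conditional control, where it averaged 5.26 FPKM.

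**Figure D4:**
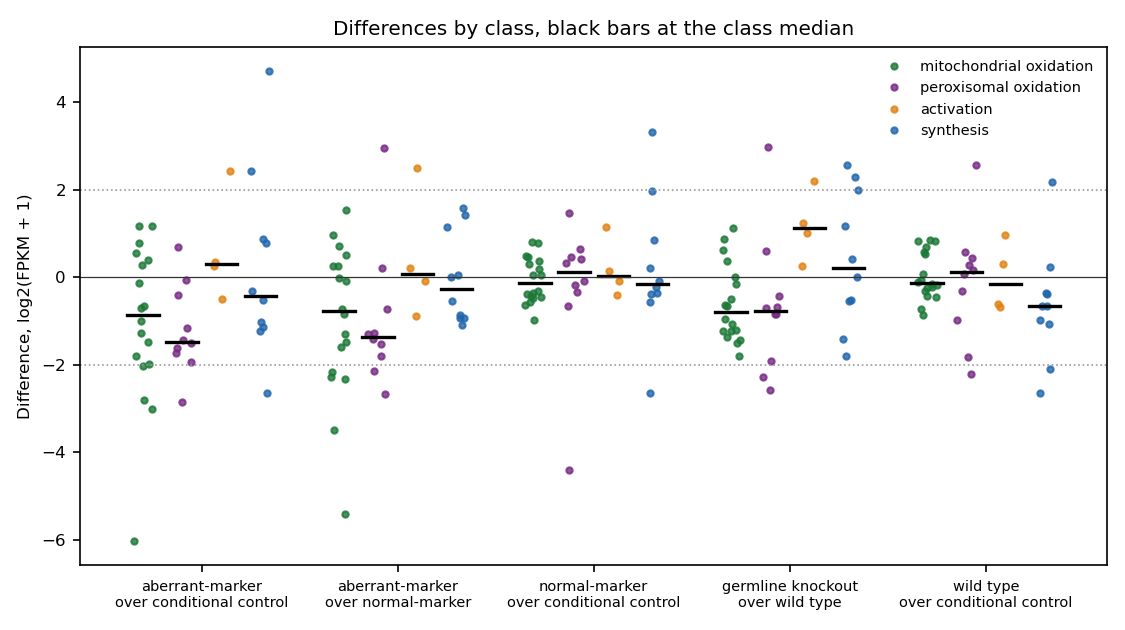
Log2(FPKM + 1) differences of the 42 genes by class in the comparisons of libraries, 1 point per gene. Most oxidation genes of the aberrant-marker and germline knockout libraries lie below 0 when set against their controls, and the normal-marker library lies around 0.

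Of 12 dendritic cell markers, 10 averaged higher and 2 lower in the aberrant-marker library than in the conditional control, and 6 were higher, 3 lower and 3 equal in the germline knockout against the wild type. Their summed level was 5518 FPKM in the aberrant-marker and 74.9 FPKM in the normal-marker library, against 34.3 FPKM in the conditional control, and 10 of them reached 1 FPKM in the aberrant-marker library, against 5 each in the normal-marker and conditional control libraries. It was 287 FPKM in the germline knockout, against 68.3 FPKM in the wild type, with 5 markers at 1 FPKM or more in the germline knockout and 3 in the wild type. The chemokine Ccl22, the chemokine receptor Ccr7 and the surface protein Cd83 held 4841 FPKM of the sum in the aberrant-marker and 260.4 FPKM in the germline knockout library. Zbtb46, a factor of the classical dendritic lineage, was at 34.2 FPKM in the aberrant-marker library, against 0.0438 FPKM in the conditional control, and at 0.0113 FPKM in the germline knockout, against 0.171 FPKM in the wild type. Clec9a was at 0.620 FPKM in the aberrant-marker library, against 1.90 FPKM in the conditional control, and listed at 0 in the germline knockout, against 2.14 FPKM in the wild type. Xcr1 was under 0.01 FPKM in the aberrant-marker library, against 2.09 FPKM in the conditional control. Flt3, a defining receptor of that lineage, was at 37.3 FPKM in the aberrant-marker and 0.667 FPKM in the germline knockout library and listed at 0 in the other 3. Cd3e, a T cell receptor component, was at 17.7 FPKM in the aberrant-marker library and listed at 0 in the other 4, and 8 of 10 T cell markers reached 1 FPKM there, against 2 or fewer elsewhere. The summed T cell list, nearly all of it Cd2 outside the aberrant-marker library, was 186 and 263 FPKM in the aberrant-marker and normal-marker libraries, against 332 FPKM in the conditional control, and 24.9 FPKM in the germline knockout, against 455 FPKM in the wild type. Alveolar macrophage markers averaged lower in 12 of 12 cases in the aberrant-marker library than in the conditional control, and in 9 of 12 in the germline knockout than in the wild type, where Chil3, Itgax and Fabp4 were higher. Their summed level was 8922 FPKM in the aberrant-marker and 33912 FPKM in the normal-marker library, against 16507 FPKM in the conditional control, and 47689 FPKM in the germline knockout, against 18389 FPKM in the wild type. Without Chil3, the most abundant of them, it was 631 FPKM in the aberrant-marker and 6177 FPKM in the normal-marker library, against 7341 FPKM in the conditional control, and 1115 FPKM in the germline knockout, against 9111 FPKM in the wild type. The scavenger receptor Marco was at 0.258 FPKM in the aberrant-marker and 168 FPKM in the normal-marker library, against 224 FPKM in the conditional control, and at 13.5 FPKM in the germline knockout, against 339 FPKM in the wild type. All 12 alveolar macrophage markers reached 1 FPKM in the normal-marker, conditional control and wild-type libraries, and 9 in the other 2. The part of other cell types in the differences of the 42 genes was not tested. Of 11 type 2 epithelial markers, 3 to 5 reached 1 FPKM in each library, and the list summed to 171 FPKM in the aberrant-marker and 95.0 FPKM in the normal-marker library, against 207 FPKM in the conditional control, and 103 FPKM in the germline knockout, against 232 FPKM in the wild type. Napsa, Epcam and Cdh1 held most of it. The defining surfactant genes Sftpa1, Sftpb, Sftpc and Sftpd, the transporter gene Slc34a2, the B cell markers and the collagen genes were under 0.01 FPKM in each library.

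In germline knockout macrophages 2 of the 42 genes were lower than in the wild type by the 4-fold rule and 0 were higher, beside 3.36% and 2.73% of all genes. Among genes that reached 20 FPKM in the higher library the backgrounds were 8.56% and 6.96%, and 30 of the 42 genes reached that level. Both genes are peroxisomal. Decr2 had 5.73 and 4.77 FPKM in the germline knockout, against 35.0 and 38.0 FPKM in the wild type, a log2 difference of -2.58. Scp2 had 39.97 and 41.1 FPKM in the germline knockout, against 199 and 198 FPKM in the wild type, a log2 difference of -2.27. The wild-type level of Decr2 was itself out of range of the other 4 libraries, which averaged 7.35 FPKM or less, and with the conditional control as reference 0 genes were called lower. The median log2 difference over the 42 genes was -0.54, against 0.00 over all genes and -0.14 over genes at 20 FPKM or more. With means at least 2-fold apart, 13 of 42 genes (31%) were lower, beside 24.4% of all genes, and 9 (21.4%) were higher, beside 20.8%.

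All 3 entry genes and 7 of 9 chain genes stood lower without a call, beside 5514 of all 11336 genes compared that stood lower. Cpt1a had 18.0 and 17.4 FPKM in the germline knockout, against 41.7 and 43.6 FPKM in the wild type, and Cpt2 had 20.1 and 22.4 FPKM in the germline knockout, against 42.01 and 41.5 FPKM in the wild type. Acadvl had 31.5 and 31.7 FPKM in the germline knockout, against 87.4 and 86.0 FPKM in the wild type, and Acadm had 50.3 and 46.8 FPKM in the germline knockout, against 75.9 and 78.7 FPKM in the wild type. Their log2 differences were -1.22 for Cpt1a, -0.94 for Cpt2, -1.43 for Acadvl and -0.66 for Acadm. Hadha had 15.8 and 15.1 FPKM in the germline knockout, against 37.5 and 35.9 FPKM in the wild type, and Acaa2 had 41.99 and 42.1 FPKM in the germline knockout, against 150.4 and 146 FPKM in the wild type. Hadh, near 0 in aberrant-marker macrophages, had 43.5 and 45.8 FPKM in the germline knockout, against 48.9 and 50.3 FPKM in the wild type. The samples of the groups did not overlap for these 7 genes, although for Hadh the gap was small, at -0.15 (log2). The share of all genes without overlap was not counted. Eci2 had 32.3 and 32.1 FPKM in the germline knockout, against 85.5 and 68.3 FPKM in the wild type, and Etfb had 130.1 and 127 FPKM in the germline knockout, against 199.9 and 202 FPKM in the wild type. Acadl averaged 74.3 FPKM in the germline knockout, against 57.4 FPKM in the wild type. Echs1 was the mitochondrial gene that stood highest against the wild type, with 108 FPKM in the germline knockout and 49.2 FPKM in the wild type.

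Among the other peroxisomal genes Hsd17b4 had 42.1 and 43.7 FPKM in the germline knockout, against 162 and 163 FPKM in the wild type, at -1.90 (log2) just short of the call. Acaa1a had 91.1 and 96.2 FPKM in the germline knockout, against 160.3 and 173 FPKM in the wild type, and Pex5 had 15.0 and 15.9 FPKM in the germline knockout, against 9.59 and 9.99 FPKM in the wild type. Abcd3 stood out in the other direction at 15.2 FPKM in the germline knockout and 1.05 FPKM in the wild type, the lowest level of the 5 libraries, with the higher library under the 20 FPKM floor.

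All 4 synthetases were above the wild type in the germline knockout, beside 4851 of all 11336 genes compared. Acsl5 had 56.5 and 53.1 FPKM in the germline knockout, against 27.1 and 26.4 FPKM in the wild type, and Acsl4 averaged 16.6 FPKM in the germline knockout, against 6.498 FPKM in the wild type. Acsl3 averaged 8.53 FPKM in the germline knockout, against 1.07 FPKM in the wild type, and Acsl1 averaged 23.4 FPKM in the germline knockout, against 19.3 FPKM in the wild type. The log2 differences ran from 0.27 for Acsl1 to 2.21 for Acsl3.

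Acaca had 7.90 and 8.07 FPKM in the germline knockout, against 0.796 and 0.871 FPKM in the wild type, a log2 difference of 2.29. Fasn had 2.12 and 2.28 FPKM in the germline knockout, against 7.60 and 7.31 FPKM in the wild type, and Acly had 20.7 and 20.2 FPKM in the germline knockout, against 74.3 and 72.8 FPKM in the wild type. Fasn and Acly were thus lower, with log2 differences of -1.40 for Fasn and -1.80 for Acly, in the library where Acaca was higher, and none of the 3 met the rule. Scd1 had 2.67 and 3.25 FPKM in the germline knockout, against levels under 0.01 FPKM in the wild type, and Scd2 had 19.2 and 21.2 FPKM in the germline knockout, against 28.3 and 30.8 FPKM in the wild type. Elovl1 had 99.4 and 101 FPKM in the germline knockout, against 70.9 and 77.1 FPKM in the wild type. Fads1 averaged 4.89 FPKM in the germline knockout and was listed at 0 in the wild type.

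The aberrant-marker and germline knockout comparisons share no library, so each gene has a pair of separate differences. Of the 42 genes, 20 (47.6%) were below their control in both comparisons, beside 28.3% of all genes and 33.3% of the 5506 genes with at least 20 FPKM in any library. Above their control in both were 9 (21.4%), beside 23.6% of all genes and 27.6% of those 5506. With means at least 2-fold lower in both, the count was 9 (21.4%), beside 9.35% of all genes: Cpt1a, Acads, Acadvl, Acaa2, Eci2, Decr2, Hsd17b4, Scp2 and Acly. Peroxisomal genes were below their control in both in 7 of 10 cases and mitochondrial genes in 10 of 18, with the synthetases at 0 of 4 and the synthesis genes at 3 of 10. Acsl3 and Scd1 were at least 2-fold higher in both, 2 of 42 (4.76%), beside 7.29% of all genes.

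**Figure D5:**
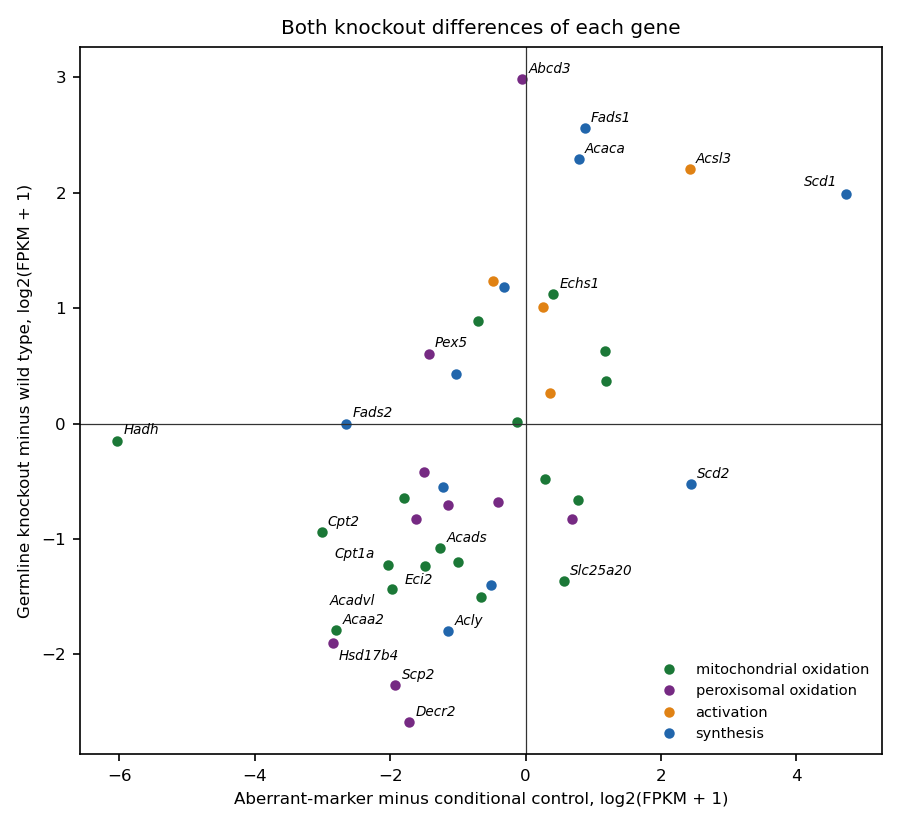
Log2(FPKM + 1) difference of each of the 42 genes in the aberrant-marker library against the conditional control (horizontal) and in the germline knockout against the wild type (vertical), coloured by class. The lower left part holds 20 genes and the upper right part 9.

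Normal-marker macrophages of the conditional knockout line had few calls against the conditional control. Of the 42 genes 1 was lower, beside 0.838% of all genes, and 0 were higher, beside 0.935%. Among genes that reached 20 FPKM in the higher library, of which 29 were of the 42, the backgrounds were 2.22% and 2.48%. That gene was Pex5, listed at 0 in both normal-marker samples, against 20.3 and 19.9 FPKM in the conditional controls. The call rested on a level at the 20 FPKM floor and was lost when the first conditional control sample, the higher one, was left out. Of 3716 genes with at least 20 FPKM in the conditional control, 8 (0.215%) were under 0.1 FPKM in the normal-marker library, and Pex5 was 1 of them. The median log2 difference over the 42 genes was -0.08, with -0.13 for mitochondrial, 0.12 for peroxisomal, 0.03 for activation and -0.15 for synthesis genes. Scd1 stood between the other libraries of the line, at a log2 difference of 3.31 with the higher library under the floor, and Acsl5 stood at 1.15. Fads1 was at 1.97, with 15.6 FPKM in the normal-marker library, against 3.24 FPKM in the conditional control, and Abcd3 at 1.47, with 25.2 FPKM in the normal-marker library, against 8.45 FPKM in the conditional control. Fads2 was listed at 0 in the normal-marker library, against 5.26 FPKM in the conditional control.

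Set against normal-marker macrophages of the same line, aberrant-marker macrophages were lower in 5 of 42 genes, beside 3.26% of all genes, and higher in 0, beside 4.02%. At 20 FPKM or more, reached by 30 of the 42, the backgrounds were 8.02% lower and 9.91% higher. The 5 were Cpt2 at -3.49 (log2), Hadh at -5.40, Acaa2 at -2.32, Eci2 at -2.28 and Hsd17b4 at -2.66. This comparison shares the aberrant-marker library with the one above and is no separate support for it. Acadvl, at -2.16, was past the threshold in the mean and not in every pairing. Class medians were -0.77 for mitochondrial, -1.35 for peroxisomal, 0.07 for activation and -0.27 for synthesis genes.

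The wild-type and conditional control libraries, neither of which is labelled a knockout, give a yardstick for differences between lines. In the wild type 2 of 42 genes were higher than in the conditional control, beside 0.935% of all genes, and 0 were lower, beside 1.17%. At 20 FPKM or more, reached by 30 of the 42, the backgrounds were 2.43% higher and 3.04% lower. These were Decr2 at 2.58 (log2) and Scd2 at 2.18. The median over the 42 genes was -0.19, and the mitochondrial genes spanned -0.85 to 0.84. The other classes spanned more: -2.21 to 2.58 for peroxisomal genes and -2.65 to 2.18 for synthesis genes, except the synthetases at -0.67 to 0.96. Y-linked Eif2s3y averaged 60.8 FPKM in the wild type and was listed at 0 in the conditional control. Ddx3y, also Y-linked, averaged 24.2 FPKM in the wild type and under 0.01 FPKM in the conditional control, and Xist was under 0.01 FPKM in the wild type, against 3.75 FPKM in the conditional control. Line and these signs of sex cannot be told apart in this comparison.

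Further genes of the same pathways, 97 of them compared, gave the surroundings of these values. In the aberrant-marker library 8 were lower than in the conditional control, beside 3.76% of all genes, and 2 higher, beside 4.09%, with a median log2 difference of -0.54. The lower ones were Acaa1b and Pex7 of the peroxisome, Ivd of branched-chain amino acid breakdown, the elongation genes Ptplad1 and Ptplad2, the regulators Lpin1 and Rxra, and Srebf1, the transcription factor of fatty acid synthesis. Of these, Pex7, Ivd, Ptplad2 and Lpin1 differed most between the controls. They averaged 41.0, 27.3, 49.6 and 75.6 FPKM in the conditional control, against 10.1, 4.15, 14.0 and 37.4 FPKM in the wild type. Rxra, the partner of lipid-sensing nuclear receptors, averaged 1.88 FPKM in the aberrant-marker and 54.8 FPKM in the normal-marker library, against 55.6 FPKM in the conditional control. Srebf1 averaged 3.46 FPKM in the aberrant-marker and 37.0 FPKM in the conditional control library, while Srebf2, the factor of cholesterol synthesis, was higher at 52.8 FPKM in the aberrant-marker library, against 10.0 FPKM in the conditional control. The other higher gene, the fatty acid transport protein gene Slc27a3, was at 139 FPKM in the aberrant-marker library and at 0.0871 FPKM or less in each of the other 4.

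In the germline knockout 6 of the 97 were lower than in the wild type, beside 3.36% of all genes, and 3 higher, beside 2.73%, with a median of -0.25. The lower ones were Acaa1b, Far1, Pecr and Pex11a of the peroxisome, Acss1 and Lpin1, and the higher ones were Acbd3, Hsd17b10 and Ivd. Lpin1, a phosphatidate phosphatase and coactivator of oxidation genes, averaged 2.24 FPKM in the germline knockout, against 37.4 FPKM in the wild type, and it was also among the genes lower in the aberrant-marker library. Between the controls, Pex11a and Insig1 were higher and Acbd3 and Ivd lower in the wild type, so the calls of Pex11a, Acbd3 and Ivd in the germline knockout rest on genes that also differed between the controls.

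The normal-marker library had 2 higher genes of the 97, Pex11a and Insig1, beside 0.935% of all genes, and 1 lower gene, Mcat, beside 0.838%, with a median of -0.13 against the conditional control. Against the wild type neither higher gene stood higher. Insig1 averaged 31.9 FPKM in the normal-marker library, 5.35 FPKM in the conditional control and 44.0 FPKM in the wild type. Pex11a averaged 25.1, 3.69 and 47.1 FPKM in the same order. Aberrant-marker macrophages had 10 lower genes than normal-marker macrophages, beside 3.26% of all genes, and 1 higher gene, beside 4.02%, with a median of -0.46. The lower ones were Acaa1b, Pex11a, Mecr, Ptplad2, Slc25a1, Lpin1, Nr1h3, Pparg, Rxra and Srebf1, and the higher one was Slc27a3. Pparg averaged 31.2 FPKM in the aberrant-marker and 147 FPKM in the normal-marker library, with 95.3 FPKM in the conditional control. Ppara, the nuclear receptor best known for driving hepatic oxidation, was listed at 0 in each library.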

How the data were processed

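The data are RNA sequencing of 10 alveolar macrophage samples. Per the labels' protocols, 100 pg of RNA per sample were amplified over 18 PCR cycles with a SMARTer kit, which marks neither strand nor molecule. The authors deposited 1 table of values for 45913 RefSeq transcripts, taken here as FPKM, normalized by the authors before deposit. Its header names no unit, and the column sums of 625660 to 668491 do not tell FPKM from TPM. The submitters' processing notes list Bowtie 1.1.2 and eXpress 1.5.1 and state no role; eXpress divides reads shared between transcripts. The sources used here give no build, annotation, filter or pooling. Depth was estimated from the smallest value steps and is approximate.

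FPKM were summed per Entrez gene (26173 genes) with pandas 2.3.3, a pseudocount of 1 FPKM was added, and libraries were compared by the 4-fold size rule. On simulated counts the rule recovered differences set well past its threshold. That simulation held counting noise alone, with no variation between libraries or from amplification. It therefore cannot show how the rule performs with 1 library per group. The 42 genes, the further lists and the rules were chosen with earlier results of these data known, and some genes of the further lists are not reported here. Values in every sample were given for called genes, for the gene of highest mean in each class and for 9 named enzymes. Within a group the correlation of log2(FPKM + 1) was 0.993 to 0.998, against 0.685 to 0.853 between groups, and squared count differences over their sum had a median of 0.496 to 0.617, where draws from 1 library give 0.455. Sequence shared between genes was counted over 50-base stretches of GENCODE M21 transcripts; 6 of the 42 genes shared over 5% with another gene on the same strand and 5 on the opposite strand, among them Acadvl (24.0%, mostly with Dvl2) and Pex14 (25.1%, with Gm17029). Promoters are from RefSeq (GRCm38.p6). The alternatives tried were pseudocounts of 0.1 and 5, a 2-fold threshold, a floor of 5 FPKM, no filter on low values, 2 scalings, the highest transcript only, the other control, and leaving out each sample.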

Additional observations from a re-analysis of the deposited data

Results flagged for a closer look

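In 5 of the 42 genes every pairing of samples placed the aberrant-marker library on one side of the conditional control and the germline knockout on the other side of the wild type, each by at least 0.5 log2 units. The difference between the effects was not tested, and each effect rests on 1 library per group. The share of all genes that meet this rule was not counted, so the 5 have no background beside them. The controls themselves differed in most of them, so these differences depend on the control used as reference. Acadm averaged 42.6 FPKM in the conditional control and 77.3 FPKM in the wild type, and Etfdh 33.0 and 17.8 FPKM. In the same order Ehhadh averaged 5.26 and 0.773 FPKM, Pex5 20.1 and 9.79 FPKM, and Slc25a20 24.0 and 20.6 FPKM. Slc25a20, the carnitine-acylcarnitine carrier, stood at 0.57 in the aberrant-marker comparison, here the first, and -1.37 in the germline one, 1.93 apart. Acadm, the medium-chain dehydrogenase, stood at 0.78 in the first comparison and -0.66 in the germline one, 1.44 apart. Ehhadh, a peroxisomal bifunctional enzyme, stood at 0.69 in the first comparison and -0.83 in the germline one, 1.51 apart, with levels of 9.42 FPKM or less in all samples. Etfdh, which passes electrons to ubiquinone, stood at -0.71 in the first comparison and 0.88 in the germline one, a difference of -1.59. Pex5, the peroxisomal import receptor, stood at -1.43 in the first comparison and 0.60 in the germline one, a difference of -2.04.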

How the results depend on the processing

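Of 2635 log2 differences recomputed for single genes, 2173 stayed within the spread of the sample pairings and 462 moved. Of the called differences, 0 changed sign, and a lost call was not counted as a reversal. The 2-fold threshold, the floor of 5 FPKM and the lack of a filter cannot alter a log2 difference. Leaving out 1 sample could hardly move a difference past that spread either, because both come from the same samples. Much of the 2173 was therefore fixed in advance. Against the conditional control, the 2 higher genes of the aberrant-marker library became 1 with a pseudocount of 5 or with the wild type as reference (Scd2 was lost), and the 5 lower genes became 16 at 2-fold. Cpt1a lost its call with a pseudocount of 5, with median-ratio scaling, with the highest transcript only and with the wild type as reference. For the normal-marker library, 0 higher genes became 2 at 2-fold, 1 with a floor of 5 FPKM, 2 with a common total and 1 with the wild type as reference. Its 1 lower gene became 2 with a floor of 5 FPKM and 0 with median-ratio scaling, with the highest transcript only or with the wild type as reference, and 0 to 1 when each sample was left out. Between aberrant-marker and normal-marker macrophages, 0 higher genes became 2 at 2-fold and 1 with a floor of 5 FPKM, and 5 lower genes became 14 at 2-fold, with 5 to 6 when each sample was left out. In the germline knockout, 0 higher genes became 1 at 2-fold, 3 with a floor of 5 FPKM and 1 with a common total. Its 2 lower genes became 1 with a pseudocount of 5, 11 at 2-fold and 0 with the conditional control as reference. Between the controls, 2 higher genes became 0 with a pseudocount of 5, and 0 lower genes became 1 at 2-fold and 2 with a floor of 5 FPKM. The cause was not tested except where the threshold or floor itself admits more genes. Median-ratio scaling moved the median of genes at 20 FPKM or more from -0.03 to 0.10 in the aberrant-marker comparison and a common total moved it from -0.14 to -0.28 in the germline comparison, and the class medians of oxidation genes stayed below 0 in both, at -0.72 to -0.76 for mitochondrial genes under the first and -0.89 under the second. No paired analysis was possible because the titles number the samples across the series, the groups share no number and no test was made. With 1 library per group and no molecular identifiers, the depth bounds counting error only.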
